A study of Mus musculus with 13 samples.

Results

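Described here are 10 genes, Erg, Lyl1, Lmo2, Hhex, Mycn, Bcl11a, Spi1, Mef2c, Meis1 and Kit, which encode 9 transcription regulators and a receptor tyrosine kinase of blood stem cells and early thymic progenitors. All 10 are linked to leukaemia when they are misexpressed or mutated. They were listed by name, and each of the 10 was found among the 47937 genes of the count table. The list was chosen by measured values of these same libraries, since Erg falls sharply from the DN3 to the DN4 stage in them. Values of the 10 genes between the stages are therefore a description and carry no test, whereas the difference between genotypes played no part in the choice and was tested.

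The libraries come from thymocytes sorted as lacking CD4 and CD8, at the DN3 stage, which carries CD25, or at the later DN4 stage, which has lost it. β-selection, the checkpoint for a working T cell receptor β chain, lies between both stages. Wt mice were WT;Lck-Cre+ and KO mice were Opa1fl/fl;Lck-Cre+, so that both genotypes, in a C57BL/6 background and at 6 weeks of age, carried Cre recombinase under the Lck promoter, which acts in T lineage cells. By this design Opa1, a shaper of the inner mitochondrial membrane, is to be removed in T lineage cells of KO mice and not in other cells of the thymus. The study reported less OPA1 protein in thymocyte lysates, not in sorted DN3 or DN4 cells. The 13 libraries were from 3 Wt and 3 KO mice at DN3 and from 4 Wt and 3 KO mice at DN4. By the numbers in the labels, mice KO45, KO49, KO51, WT05, WT46 and WT48 gave both stages, and WT40 gave DN4 only.

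As background, these regulators work in a small number of circuits. LYL1, a basic helix-loop-helix factor, binds DNA with an E protein, and LMO2 bridges it through LDB1 to GATA and RUNX factors. ERG and SPI1 (also called PU.1) are ETS factors, HHEX and MEIS1 are homeodomain proteins, BCL11A is a zinc finger repressor, MEF2C a MADS box factor, and MYCN the neural relative of MYC. KIT is the receptor for stem cell factor. Early thymic progenitors express many of them and shut them off as they commit to the T lineage, and forced expression of several gives rise to T cell leukaemia. SPI1, BCL11A, MEF2C, HHEX, LYL1 and LMO2 also work in B cells or their precursors.

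Library totals ran from 5926848 to 14148661 counts. Ribosomal RNA-like genes took 41.6% of the DN3 library of WT05, against 0.445% to 1.75% in the others. Opa1 was at 77.0 to 93.8 CPM (counts per 1000000 counts, on normalised library sizes) in the 6 KO libraries and 85.1 to 111.8 CPM in the 7 Wt libraries. These ranges overlap, so that the genotype rests on the label. The Y-linked gene Ddx3y was counted in WT40 and WT46 and was at 0 in the other 5 mice, the 3 KO mice among them, so sex was not balanced between the genotypes. Il2ra, which encodes CD25, was at 727 to 1337 CPM in DN3 and 9.78 to 24.1 CPM in DN4 libraries. Cd8a was at 11.3 to 38.5 CPM in DN3 and 78.6 to 1133 CPM in DN4, and Cd4 at 3.63 to 9.98 CPM in DN3 and 18.6 to 671 CPM in DN4, both highest in the DN4 library of KO45, so that DN4 libraries differed among themselves in transcripts of the co-receptors the sort removes. Their part in the results was not tested. All 12 genes of a B cell marker list were detected with at least 10 counts in a Wt DN4 library, and their summed level was 287 to 431 CPM over the DN3 libraries and 957 to 5919 CPM over the DN4 libraries.

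Promoters of Erg, Lyl1 and Mef2c are shown because Erg had the steepest fall of the 10 genes and has 3 listed starts, whereas Lyl1 and Mef2c belong to the 6 genes with higher DN4 levels. Of the 10 genes, 8 had an entry in the RefSeq promoter table (GRCm38.p6), and Lmo2 and Spi1 had none. Each line gives the 250 bases before a transcript start, 5′ to 3′ on the strand of the gene. None of these bases lay in an annotated exon. Capitals mark the E-box CANNTG, bound by basic helix-loop-helix factors such as LYL1, the ETS core GGAAG and the GATA core GATAA, each on either strand, and the RUNX site TGTGGT and the MYC E-box CACGTG, a subset of CANNTG, were searched as well.
Erg start 1, chr16:95586594-95586843, minus strand: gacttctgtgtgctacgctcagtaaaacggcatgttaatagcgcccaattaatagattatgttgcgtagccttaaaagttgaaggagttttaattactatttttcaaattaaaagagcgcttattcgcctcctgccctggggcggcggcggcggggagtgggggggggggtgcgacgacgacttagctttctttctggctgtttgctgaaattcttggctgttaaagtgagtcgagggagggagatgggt
Erg start 2, chr16:95530366-95530615, minus strand: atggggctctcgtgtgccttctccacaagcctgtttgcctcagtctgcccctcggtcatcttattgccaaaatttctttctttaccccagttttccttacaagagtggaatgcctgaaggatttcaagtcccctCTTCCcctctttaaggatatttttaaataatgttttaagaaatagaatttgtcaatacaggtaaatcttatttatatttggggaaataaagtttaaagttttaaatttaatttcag
Erg start 3, chr16:95459349-95459598, minus strand: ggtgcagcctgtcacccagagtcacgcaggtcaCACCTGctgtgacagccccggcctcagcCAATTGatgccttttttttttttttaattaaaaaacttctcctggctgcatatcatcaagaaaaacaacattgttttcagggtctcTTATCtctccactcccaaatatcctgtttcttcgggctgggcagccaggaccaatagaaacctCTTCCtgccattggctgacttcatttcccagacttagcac
Lyl1, chr8:84701207-84701456, plus strand: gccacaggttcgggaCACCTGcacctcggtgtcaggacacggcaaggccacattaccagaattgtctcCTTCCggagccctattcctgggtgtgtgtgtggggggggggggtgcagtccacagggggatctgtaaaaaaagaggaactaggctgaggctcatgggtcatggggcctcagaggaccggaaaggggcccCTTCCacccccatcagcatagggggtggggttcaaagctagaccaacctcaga
Mef2c start 1, chr13:83503784-83504033, plus strand: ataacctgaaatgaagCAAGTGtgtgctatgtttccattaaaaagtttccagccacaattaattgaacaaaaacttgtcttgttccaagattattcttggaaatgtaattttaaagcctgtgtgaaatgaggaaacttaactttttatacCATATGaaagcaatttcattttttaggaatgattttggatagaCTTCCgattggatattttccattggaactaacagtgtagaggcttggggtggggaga
None of the 5 motifs was found at the first Erg start, at the upstream end of the gene. The start inside the gene at 95530365 had an ETS core at −116, counted back from the start, and the one at 95459348 had E-boxes at −217 and −189, a GATA core at −103 and an ETS core at −40. The Lyl1 window held an E-box at −235 and ETS cores at −182 and −53, and the Mef2c window held E-boxes at −234 and −100 and an ETS core at −57. Mef2c, like Erg, has 3 listed starts, and the other two, which hold ETS cores as well, are not shown. Such letters are common. Over the 300 base windows of all 32851 promoters, 72.3% held an E-box, 71.4% an ETS core, 25.4% a GATA core, 16.8% the RUNX site and 7.15% the MYC E-box. Counts per gene do not show which start was used.

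Per length, that is as CPM per kilobase of exon, the order of the levels turned over between the stages. In Wt DN3 cells Erg was highest with 7.04 ± 0.838 CPM per kilobase (SD, n = 3), followed by Kit with 5.39 ± 0.842, Mycn with 2.50 ± 0.810 and Lyl1 with 1.32 ± 0.690 CPM per kilobase. The other 6 lay at 0.523 or below. Kit and Mycn were apart by more than their SDs, while Erg and Kit, Mycn and Lyl1, and each pair of neighbours among Bcl11a, Hhex, Spi1 and Mef2c (0.287 to 0.523 CPM per kilobase) overlapped. In Wt DN4 cells Lmo2 (19.7 ± 20.3, SD, n = 4) and Lyl1 (17.1 ± 17.3) were on top, with SDs as large as their means. Hhex, Mef2c, Spi1, Kit and Bcl11a followed at 2.99 to 5.66 CPM per kilobase and overlapped in their spread. Mycn was at 0.708 ± 0.221 and Erg at 0.189 ± 0.144 CPM per kilobase, with Meis1 below them at the limit of counting. KO libraries gave the same 3 leading genes in DN3, with Erg at 7.66 ± 2.32 (SD, n = 3), Kit at 5.44 ± 2.45 and Mycn at 4.05 ± 1.21 CPM per kilobase.

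**Figure D1:**
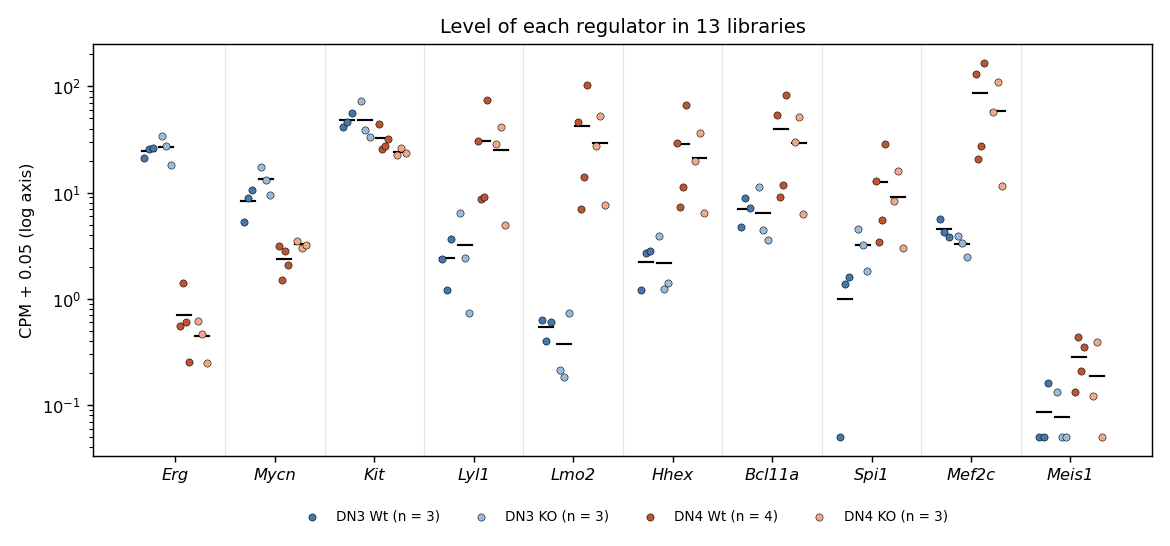
Level of each of the 10 genes in the 13 libraries, as CPM + 0.05 on a log axis, with a point per library, coloured by group (3 or 4 mice), and a bar at the group mean. Erg, Mycn and Kit lie lower in DN4 than in DN3 libraries on average, 6 genes lie higher with a wide spread among DN4 libraries, and Meis1 stays below 0.4 CPM throughout.

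Erg (ENSMUSG00000040732.18, chromosome 16 from 95359169 to 95586593 on the minus strand, 13 exon blocks) encodes an ETS factor needed by blood stem cells and found in endothelium. At DN3, WT05, WT46 and WT48 gave 72, 292 and 239 Erg counts, or 21.1, 25.8 and 26.3 CPM. At DN4, WT05, WT40, WT46 and WT48 gave 6, 14, 7 and 2 counts, or 0.500, 1.37, 0.552 and 0.203 CPM. All 3 DN3 libraries thus lay far above all 4 DN4 libraries, with a log2 fold change of −5.23 (SE 0.42). KO mice showed the same picture, with 34.3, 27.2 and 18.2 CPM in DN3 and 0.573, 0.415 and 0.199 CPM in DN4 for KO45, KO49 and KO51, and a log2 fold change of −6.01 (SE 0.40). Within the 6 mice that gave both stages, the log2 change ran from −6.08 in WT48 to −4.95 in WT05, and it was negative in each. In bulk samples, fewer cells that express a gene and less RNA per cell cannot be told apart.

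Endothelial markers were low next to Erg. Of 12 on the list, 8 to 10 had 3 counts or fewer in each library of a group, Emcn, Sox17 and Tie1 were at 0 in every library, and the endothelial cadherin Cdh5 was at 0 to 1.98 CPM in DN3 and 0.158 to 0.859 CPM in DN4. The summed level of the list, 96.9 to 133 CPM in DN3 and 107 to 237 CPM in DN4, was carried by Pecam1, which thymocytes may also express and which was at 95.7 to 236 CPM. Closest to Erg in pattern over the 13 libraries, by the root mean square difference of centred log2 CPM among 13361 genes, were Gm5111 (0.600), Itgb4 (0.601), Gm12504 (0.607), Cyp2j6 (0.621) and Bst1 (0.657). Itgb4 encodes integrin β4, and Bst1 encodes the surface enzyme CD157. Their Wt means were 65.0 CPM in DN3 and 2.19 CPM in DN4 for Itgb4, and 54.9 and 2.33 CPM for Bst1.

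Mycn (ENSMUSG00000037169.14, chromosome 12 from 12936093 to 12941914 on the minus strand) had 5.27, 8.94 and 10.5 CPM in the DN3 libraries of WT05, WT46 and WT48. In DN4 it had 3.08, 1.46, 2.76 and 2.03 CPM in WT05, WT40, WT46 and WT48. The stages did not overlap, and the log2 fold change was −1.85 (SE 0.35). KO libraries were at 17.4, 13.2 and 9.42 CPM in DN3 and 3.44, 2.97 and 3.19 CPM in DN4, a log2 fold change of −2.09 (SE 0.29). The change within a mouse ran from −2.28 in KO45 to −0.74 in WT05. Its relative Myc was more abundant, with 143.6 ± 32.5 CPM per kilobase against 2.50 ± 0.810 for Mycn in Wt DN3 libraries (SD, n = 3).

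Kit (ENSMUSG00000005672.12, chromosome 5 from 75574916 to 75656722) encodes the receptor that early thymic progenitors use to respond to stem cell factor. It had 41.6, 46.4 and 56.3 CPM in the DN3 libraries of WT05, WT46 and WT48 and 44.0, 25.9, 27.5 and 32.2 CPM in the DN4 libraries of WT05, WT40, WT46 and WT48. Wt stages overlapped through WT05, whose DN4 library was above its DN3 library, and the log2 fold change was −0.60 (SE 0.20). In KO mice, 73.4, 38.9 and 33.1 CPM in DN3 stood against 22.7, 26.0 and 23.4 CPM in DN4, with no overlap and a log2 fold change of −1.05 (SE 0.30). Without the DN3 library of KO45, the highest of all for Kit, that value was −0.59. Kitl, which encodes the ligand, had a count in the DN4 library of WT46 alone, as 0.0789 CPM.

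**Figure D2:**
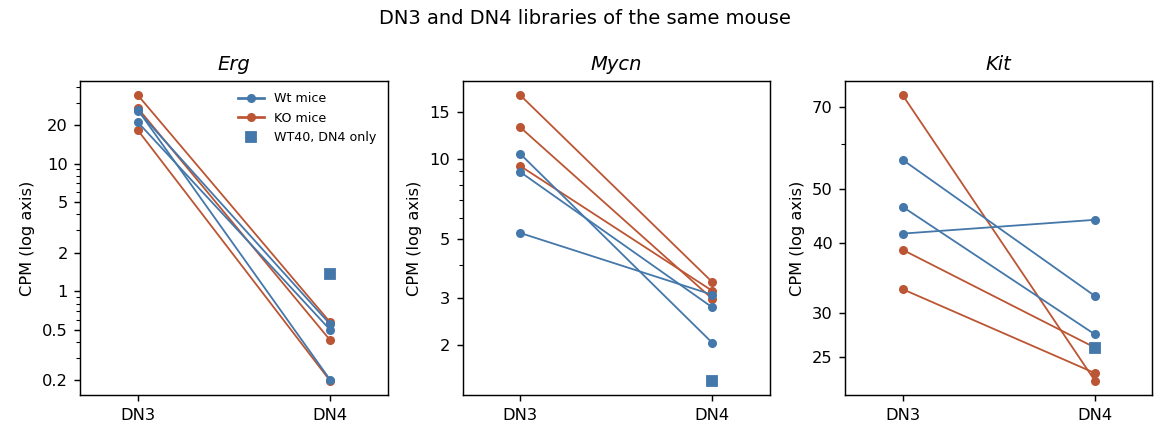
CPM of Erg, Mycn and Kit on log axes in the DN3 and the DN4 library of each mouse, joined by a line for the 6 mice with both and shown as a square for WT40. Erg and Mycn go down in each of the 6 mice, and Kit goes down in 5 and up slightly in WT05.

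Mast cells also carry KIT. Of 8 mast cell and basophil markers, Mcpt4 was at 0 in every library, and Fcer1a, Ms4a2, Mcpt8, Tpsb2 and Cma1 were at 0 in all DN3 libraries. The summed level of the list was 17.6 to 80.2 CPM in DN3 and 7.45 to 47.7 CPM in DN4 and was nearly all Cpa3, which is also known from early T cell precursors. Like Kit, Erg and Mycn, Cpa3 was highest in the DN3 library of KO45, at 80.2 CPM. That library also had the highest DN3 levels of Lyl1, Hhex, Bcl11a and Spi1. The same held for the progenitor genes Nfe2 (29.0 CPM against 7.02 to 18.7 CPM), Cd34 (2.64 against 0 to 1.33 CPM) and Hoxa9 (0.907 against 0 to 0.441 CPM), picked after their values were seen. Cd34 and Hoxa9 had 32 and 11 counts there. KO45 was not highest for Lmo2 (0.165 CPM against 0.687 CPM in KO51), Mef2c (3.88 against 5.56 CPM in WT05), Ccr9 (261 against 272 CPM in WT46) or Flt3 (0.330 against 0.585 CPM in WT05). The part of such progenitor genes in the KO values was not tested.

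Lyl1, Lmo2, Hhex, Bcl11a, Spi1 and Mef2c had higher mean levels at DN4 than at DN3, and they varied widely among DN4 libraries. Mef2c (ENSMUSG00000005583.16, chromosome 13 from 83504034 to 83667080) had 5.56, 4.25 and 3.74 CPM in the DN3 libraries of WT05, WT46 and WT48. In DN4 it had 130.3, 20.8, 27.3 and 167 CPM in WT05, WT40, WT46 and WT48. WT05 and WT48 were thus several times above WT40 and WT46, while the log2 fold change between stages was 4.28 (SE 0.86). KO libraries were at 3.88, 3.33 and 2.45 CPM in DN3 and 57.2, 109 and 11.5 CPM in DN4, a log2 fold change of 4.17 (SE 0.76).

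LMO2 and LYL1 act in one complex. Lmo2 (ENSMUSG00000032698.15, chromosome 2 from 103957986 to 103981878) had 1 to 7 counts in each DN3 library and passed the filter on low counts through its DN4 libraries alone. There WT05, WT40, WT46 and WT48 gave 557, 72, 176 and 1021 counts, or 46.4, 7.03, 13.9 and 103.6 CPM, and 27.6, 53.0 and 7.57 CPM in KO45, KO49 and KO51. The fitted log2 fold changes were 6.45 (SE 1.23) in Wt and 6.39 (SE 0.90) in KO mice. Lyl1 (ENSMUSG00000034041.4, chromosome 8 from 84701457 to 84704715, sharing 4 exon bases with Nfix on the opposite strand) had 7 to 78 counts in each DN3 library, with 2.34, 1.15 and 3.63 CPM in WT05, WT46 and WT48, and in KO51 both genes had 7 counts. In DN4 it had 30.7, 8.68, 8.99 and 74.8 CPM in WT05, WT40, WT46 and WT48, a log2 fold change of 3.69 (SE 0.93). KO libraries were at 6.43, 2.40 and 0.687 CPM in DN3 and 28.5, 41.5 and 4.88 CPM in DN4, so that the stages overlapped, with a log2 fold change of 2.90 (SE 0.87).

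Hhex (ENSMUSG00000024986.11, chromosome 19 from 37434810 to 37440731) was at 2.19 ± 0.887 CPM in Wt DN3 (SD, n = 3) and 28.6 ± 27 CPM in Wt DN4 libraries (SD, n = 4), and at 2.15 ± 1.5 and 20.9 ± 15.2 CPM in those of KO mice (SD, n = 3 each), with log2 fold changes of 3.56 (SE 0.84) and 3.20 (SE 0.70). Its stages did not overlap in either genotype. Bcl11a (ENSMUSG00000000861.15, chromosome 11 from 24078056 to 24174123), whose exons share 316 bases with 4930538E20Rik on the opposite strand, had log2 fold changes of 2.44 (SE 0.80) and 2.13 (SE 0.73), from 6.89 ± 2.13 (SD, n = 3) to 39.4 ± 35.5 CPM (SD, n = 4) in Wt libraries. It was the member of this group with the highest DN3 level in CPM, and its KO stages overlapped. Spi1 (ENSMUSG00000002111.8, chromosome 2 from 91082390 to 91115756) had log2 fold changes of 3.43 (SE 0.90) in Wt and 1.49 (SE 0.60) in KO mice, the latter being 0.82 without the DN4 library of KO49. Spi1 stages overlapped in KO mice, and its DN3 library of WT05 had 0 counts. In DN4 it was at 12.8, 3.42, 5.44 and 28.5 CPM in WT05, WT40, WT46 and WT48 and at 8.38, 16 and 2.99 CPM in KO45, KO49 and KO51.

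The DN4 levels of these 6 genes followed the B cell gene Cd79a from library to library. Cd79a, which encodes a signalling chain of the B cell receptor, was at 0.412 to 5.04 CPM in DN3. Its DN4 level was 349.4, 81.2, 96.8 and 731 CPM in the Wt mice WT05, WT40, WT46 and WT48, and 238, 437 and 52.2 CPM in the KO mice KO45, KO49 and KO51. Hhex ran through 8.23 to 12.2 counts for every 100 Cd79a counts over the 7 DN4 libraries, while its own CPM spanned 10.4-fold. The same ratio was 8.80 to 12 for Lyl1, 8.65 to 14.5 for Lmo2, 11.1 to 15.4 for Bcl11a, 3.51 to 5.73 for Spi1 and 21.9 to 37.3 for Mef2c, whose CPM spanned 9.54-fold to 15.3-fold. Of the 21 pairs that 7 libraries make, 20 to 21 were in the same order for these genes as for Cd79a. Erg was in the order of Cd79a in 7 of 21 pairs, Mycn in 9 and Kit in 15, and their ratios to Cd79a spanned 60.6-fold, 22-fold and 10.2-fold. Pax5, the B lineage commitment factor gene, followed Cd79a in all 21 pairs, and its ratio spanned 1.49-fold.

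In DN3 libraries the 6 genes stood in no such ratio to Cd79a, with 177 to 2740 Bcl11a counts and 50 to 940 Hhex counts for every 100 Cd79a counts. Of the B cell list, Cd79a, Ms4a1 and Pax5 were higher in each DN4 than in each DN3 library, while Igll1 of the pre-B cell receptor was at 0.0996 to 2.93 CPM in DN4 and Vpreb1 at 0.406 to 1.95 CPM. Myeloid cells express Spi1 and Mef2c too. Of 12 myeloid markers, Elane was at 0 in every library, 3 to 7 had 3 counts or fewer in each library of a group, and the sum was 25.7 to 35.8 CPM in DN3 and 29.9 to 184 CPM in DN4. Much of the DN4 sum was Cybb, at 6.77 to 147 CPM, which was in the order of Cd79a in all 21 pairs, whereas Lyz2, the lysozyme gene of myeloid cells, was lower in DN4, at 0.394 to 3.04 CPM against 3.8 to 12.3 CPM in DN3. The 10 plasmacytoid dendritic cell markers summed to 573 to 794 CPM in DN3 and 790 to 1472 CPM in DN4, with Siglech and Klk1 at 0 in every DN3 library. The 9 conventional dendritic cell markers, which include the class II genes H2-Ab1 and Cd74 that B cells share, summed to 12.9 to 26.8 CPM in DN3 and 396 to 4821 CPM in DN4, and Xcr1 and Cd209a among them were at 0 in every DN3 library. Of 8 DN1 and DN2 markers, Kit among them, the sum was 149 to 349 CPM in DN3 and 427 to 816 CPM in DN4 and was mostly Ccr9, at 102 to 272 CPM and 381 to 766 CPM, with Il1r2 at 0 in the Wt DN3 libraries. The 6 γδ T cell markers found in the table summed to 476 to 664 and 970 to 1972 CPM, and 10 NK and innate lymphoid markers to 21.7 to 53.2 and 71.3 to 148 CPM, with Ncr1 and Klrb1c at 0 in every DN3 library. In its flow cytometry the study took DN subsets from cells negative for lineage markers, a gate that would remove B cells, but whether it was used in the sort for sequencing is not given in the sources used here. The part of RNA of these other cell types in the DN4 levels of these genes was not tested.

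**Figure D3:**
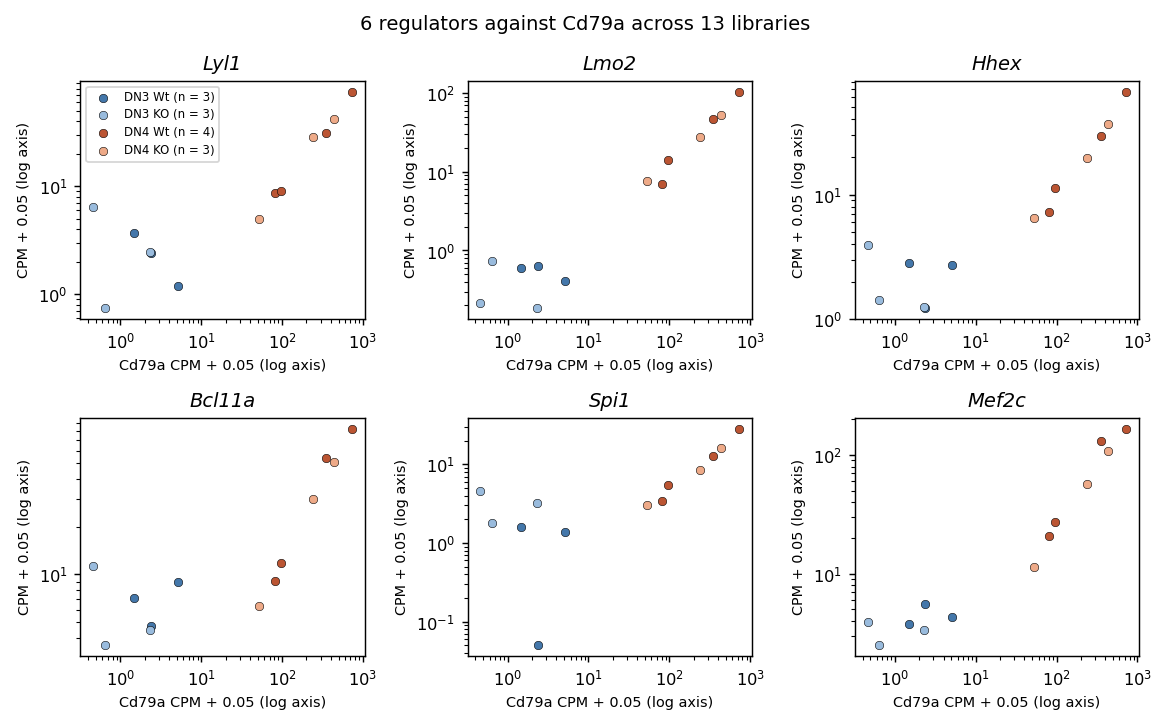
CPM + 0.05 of Lyl1, Lmo2, Hhex, Bcl11a, Spi1 and Mef2c against that of Cd79a, both on log axes, with a point per library (13 in all) coloured by group. The 7 DN4 points of each gene lie close to a rising line with Wt and KO intermixed, whereas the 6 DN3 points sit at low Cd79a with no such order.

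Meis1 (ENSMUSG00000020160.18, chromosome 11 from 18879817 to 19018985 on the minus strand, overlapping Gm37818 on the same strand) was close to the limit of counting. Each DN3 library had 0 or 1 counts. At DN4, WT05, WT40, WT46 and WT48 had 1, 4, 2 and 3 Meis1 counts, and KO45, KO49 and KO51 had 1, 5 and 0. A count of 0, found in 5 libraries, allows up to 3 counts, or 0.266 to 0.878 CPM in these 5. Such limits cover counting error only. Meis1 failed the filter in each comparison, and a difference was not detectable at this depth.

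Among the 9 genes that passed the filter, 7 lay past an adjusted p of 0.05 between stages in Wt mice (5 higher, 2 lower in DN4), where 22.9% of 12691 genes did (13.4% higher, 9.43% lower). In KO mice 6 of 9 did (3 higher, 3 lower), where 18.6% of 12580 genes did (11.2% higher, 7.34% lower). Because this contrast chose the genes, and Erg and Lmo2 passed the filter through a single stage, these counts describe the choice and nothing is read from them. Their median log2 fold change was 3.43 in Wt and 2.13 in KO mice, and that of all genes tested was −0.03 in both.

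The genotype comparison asks whether these genes differ between KO and Wt libraries, and in DN4 no difference was detected. None of the 8 genes tested passed an adjusted p of 0.05 in edgeR's quasi-likelihood test, none had an unadjusted p under 0.05, and DESeq2 called 0. In the same comparison 0.0535% of 13084 genes passed, 715 had an unadjusted p under 0.05, and DESeq2 called 51. KO and Wt libraries overlapped for all 8, where 7.08% of all genes tested had libraries that did not overlap. Of the 8, 7 were lower and 1, Mycn, was higher in KO libraries. Kit was nearest to the threshold, at 24.0 ± 1.74 CPM over the 3 KO and 32.4 ± 8.17 CPM over the 4 Wt libraries (SD), which gave a log2 fold change of −0.40 (95% interval −0.82 to 0.03, edgeR unadjusted p = 0.0628, adjusted p = 0.883). Leaving out a library gave −0.49 to −0.22, the latter without WT05. Mycn was at 3.20 ± 0.232 and 2.33 ± 0.728 CPM, a log2 fold change of 0.48 (interval −0.22 to 1.19, adjusted p = 0.90).

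For the 6 genes that followed Cd79a, a difference in thymocytes and one in the amount of B cell RNA cannot be told apart. These genes were also imprecise in the same comparison. Their log2 fold changes lay between −0.50 for Mef2c and −0.25 for Lyl1, with SEs of 0.74 to 0.89, and the interval for Lmo2, the widest, ran from −2.53 to 1.55. Changes of more than 2-fold in either direction are within such intervals. The direction rests on single libraries, since without WT48 all 6 were higher in KO libraries, by 0.03 for Mef2c to 0.66 for Lyl1. B cell marker level, summed here without Ighm and Cd79b, entered the fit as a covariate in an alternative added after the data were seen. The values then ran from −0.27 (SE 0.16) for Mef2c to 0.08 (SE 0.16) for Lyl1, and 0 of the 8 genes passed. Erg had too few counts in DN4 to be tested, with 2 to 14 counts in each library.

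In DN3 cells, 0 of 8 genes tested differed between genotypes in edgeR, with 0 at an unadjusted p under 0.05 and 0 called by DESeq2. Over all 12105 genes, 0% passed, 168 had an unadjusted p under 0.05, and DESeq2 called 3. For Spi1, KO45, KO49 and KO51 gave 55, 24 and 18 counts, and WT05, WT46 and WT48 gave 0, 15 and 14, or 4.54, 3.19 and 1.77 CPM against 0, 1.33 and 1.54 CPM. All KO libraries lay above all Wt libraries, for 1 of the 8 genes where 6.44% of all genes tested had groups that did not overlap, and the log2 fold change of 1.5 (SE 0.67) did not pass (edgeR unadjusted p = 0.0543, adjusted p = 1). WT05, with 0 counts, is the library with many ribosomal RNA-like counts, where 0 allows up to 0.878 CPM. Without it, the value was 1.15 (SE 0.50).

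Mycn was at 13.3 ± 3.99 CPM in KO and 8.22 ± 2.67 CPM in Wt DN3 libraries (SD, n = 3 each), with a log2 fold change of 0.65 (interval −0.07 to 1.38, edgeR unadjusted p = 0.0708, adjusted p = 1), and with a value of 0.41 without KO45. Erg, the gene with the largest stage difference downwards, was at 26.6 ± 8.05 and 24.4 ± 2.90 CPM, a log2 fold change of 0.11 with an interval of −0.44 to 0.65. Kit was at 48.4 ± 21.8 and 48.1 ± 7.5 CPM, a log2 fold change of 0.00 with an interval of −0.66 to 0.67. Without KO45, the values turned to −0.13 for Erg and −0.44 for Kit. Lyl1, Hhex, Bcl11a and Mef2c lay between −0.47 and 0.45, and Lmo2 had too few DN3 counts to be tested.

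**Figure D4:**
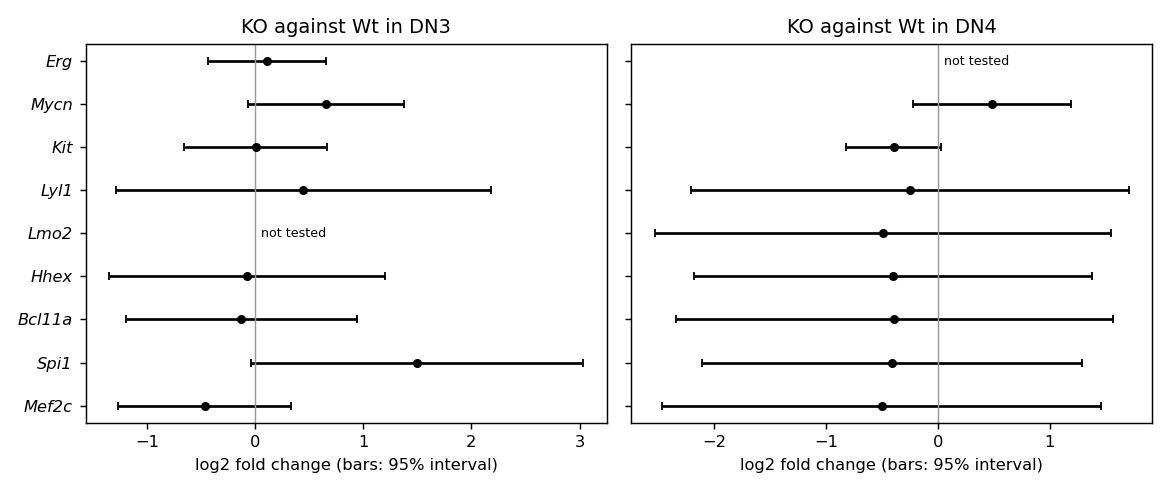
Log2 fold change of KO against Wt libraries in DN3 (left, n = 3 and 3) and DN4 (right, n = 3 and 4) for each gene tested, with bars for 95% intervals from edgeR. In DN4 the intervals of Mycn and Kit are narrower than those of the other 6 genes, in DN3 those of Erg and Kit are the narrowest, and no gene passed the adjusted threshold in either stage.

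Whether the genotype difference itself changed from DN3 to DN4 was tested as an interaction over all 13 libraries. None of 9 genes passed in edgeR, 0 had an unadjusted p under 0.05 and DESeq2 called 0 of them, where 0% of 13361 genes passed, 480 had an unadjusted p under 0.05 and DESeq2 called 2. Erg, with 2 to 14 counts in each DN4 library, and Lmo2, with 1 to 7 counts in each DN3 library, passed the filter through the other stage, so that their estimates rest on few counts and are not read. For the other 7, the estimates ran from −1.92 for Spi1 (SE 1.16, adjusted p = 1) to −0.11 for Mef2c (SE 1.24). Kit was at −0.44 (interval −1.24 to 0.36) and Mycn at −0.22 (interval −1.19 to 0.74). Over all alternatives they ran from −0.654 to −0.006 for Kit and from −0.428 to 0.017 for Mycn, the last without the DN3 library of KO45. With DN3 and DN4 libraries paired by mouse, in the 6 mice with both, the Spi1 value was −2.205 (SE 0.78, adjusted p = 0.901, and 0.859 to 1 over all alternatives).

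Genes that work with the 10 or resemble them were taken from 7 lists, with 81 genes in all. In Wt mice 54 were tested between stages and 19, or 35.2%, passed, 4 higher and 15 lower in DN4, where 22.9% of all genes did (13.4% higher, 9.43% lower). In KO mice 17 of 52, or 32.7%, passed, 6 higher and 11 lower, where 18.6% of all genes did (11.2% higher, 7.34% lower), and 14 passed in both. Their median log2 fold change was 0.01 in both genotypes, next to −0.03 for all genes tested. None passed between genotypes or in the interaction. Pairing the libraries by mouse raised the KO count to 30. For these genes, too, earlier results of the data were known when the lists were written.

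Close relatives of the 10 genes were set beside them. Of 10 relatives, 6 were tested, and in Wt mice 2 fell and 0 rose, where 9.43% of all genes fell and 13.4% rose. In KO mice 1 fell and 1 rose, where 7.34% of all genes fell and 11.2% rose. Fli1, the ETS factor closest to Erg, was at 45.5 ± 7.20 CPM in Wt DN3 (SD, n = 3) and 77.3 ± 23.1 CPM in Wt DN4 libraries (SD, n = 4), with a log2 fold change of 0.75 (SE 0.24, adjusted p = 0.0562). In KO mice Fli1 was at 0.47 (SE 0.16, adjusted p = 0.0862). Paired by mouse, Fli1 passed in both, with adjusted p = 0.024 and 0.00587, and over all alternatives the adjusted p ran from 0.0158 to 0.164 and from 0.00587 to 0.27. In DN4 libraries Fli1, at 53.2 to 103.9 CPM, was in the order of the B cell gene Cd79a in 18 of 21 pairs, and the part of B cell RNA in its level was not tested. Bcl11b, the T lineage relative of Bcl11a, fell in Wt mice by 0.78 (SE 0.20, adjusted p = 0.0235) and was at −0.36 in KO mice (adjusted p = 0.0987). Paired by mouse, the KO value passed (adjusted p = 0.0158, and 0.0158 to 0.28 over all alternatives). The Wt call was lost without the DN4 library of WT05, WT46 or WT48, with adjusted p up to 0.0767, and on library totals, with adjusted p = 0.189. Myc, like Mycn lower in DN4, fell by 0.98 (adjusted p = 0.00755, lost on library totals at 0.122) in Wt and 0.96 (adjusted p = 0.0248) in KO mice, the latter not without the KO49 library of either stage or the DN3 library of KO51 (adjusted p up to 0.0695).

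Mef2a and Mef2d, the widely expressed relatives of Mef2c, were at 0.73 and 0.15 in Wt mice (adjusted p = 0.0633 and 0.43) and at 0.88 and 0.36 in KO mice (adjusted p = 0.00801 and 0.0726), well below the 4.28 and 4.17 of Mef2c. Spib, the relative of Spi1 in B cells and plasmacytoid dendritic cells, was at 2.06 in Wt and 1.62 in KO mice and did not pass (adjusted p = 0.0782 and 0.12). Paired by mouse, Mef2d and Spib passed in KO mice, with adjusted p = 0.00654 (0.00654 to 0.245 over all alternatives) and 0.0256 (0.00434 to 0.335). In Wt mice Spib passed without the DN4 library of WT40 or WT46, with a filter of 1 count and with DESeq2 (adjusted p = 0.0383 to 0.173 over all alternatives), and Mef2a passed without the DN3 library of WT05, on library totals, with a filter of 1 count, with DESeq2 and with all 13 libraries in one fit (0.00459 to 0.187). Differences between the genotypes in these changes did not pass in the interaction. Spib had 41.0 to 57 counts for every 100 Cd79a counts in DN4 libraries and was in the order of Cd79a in 20 of 21 pairs. Tal1 and Lmo1, relatives of Lyl1 and Lmo2 that T cell leukaemias activate, had at most 8 and 4 counts in any library. Flt3, a receptor kinase related to Kit, had at most 17, and Meis2 had 0 in every library.

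**Figure D5:**
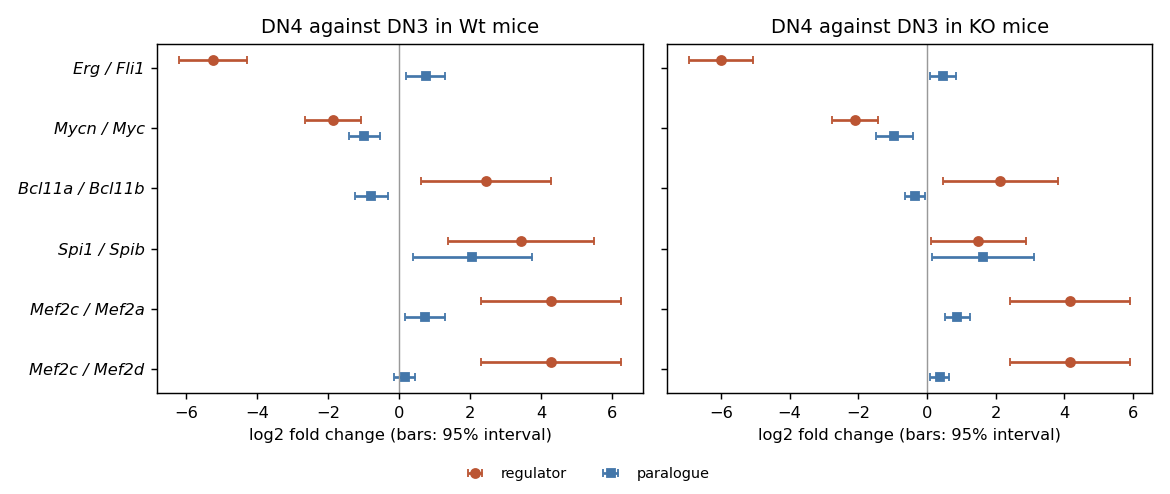
Log2 fold change of DN4 against DN3 libraries in Wt (left) and KO mice (right) for each regulator and a close relative, with bars for 95% intervals from edgeR. Erg and Fli1 lie on opposite sides of 0, as do Bcl11a and Bcl11b, whereas Mycn and Myc both lie below 0.

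Partners of the LMO2 and LYL1 complex gave 3 lower and 0 higher of 11 tested in each genotype, where 9.43% of all genes were lower in Wt and 7.34% in KO mice. Runx1 fell by 1.46 (SE 0.18, adjusted p = 0.00107), the corepressor gene Cbfa2t3 by 1.33 (adjusted p = 0.00162) and the LDB1-binding Ssbp3 by 0.61 (adjusted p = 0.00843, lost on library totals at 0.394) in Wt mice, and by 1.18, 0.71 and 0.72 in KO mice. The KO call of Cbfa2t3 (adjusted p = 0.0331) was lost on leaving out any 1 library but the DN4 library of KO45, with adjusted p up to 0.103. Among partners of MEIS1, 2 of 4 tested passed in Wt mice, where 22.9% of all genes did, with Hoxa7 down by 1.51 (adjusted p = 0.00218) and Pbx2 up by 0.37 (adjusted p = 0.0398), and 0 of 3 passed in KO mice. Hoxa7 was at −1.75 in KO mice (adjusted p = 0.0684) and passed when paired by mouse (adjusted p = 0.00199, and 0.00199 to 0.177 over all alternatives). The Wt call of Pbx2 was lost on pairing by mouse, on library totals (adjusted p = 0.269), with a filter of 1 count and on leaving out any 1 library but the DN3 library of WT46, where adjusted p went up to 0.129.

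Of 18 other stem and progenitor genes, 9 were tested in Wt mice, and 6 fell and 0 rose, where 9.43% of all genes fell and 13.4% rose. Nfe2, a factor of megakaryocytes, fell by 3.61 (SE 0.55, adjusted p = 0.00250), Angpt1, the ligand of the TIE2 receptor, by 2.29 (SE 0.16, adjusted p = 8.07e-05), Cd93 by 1.80 (adjusted p = 6.66e-04) and the ETS factor gene Etv6 by 1.40 (adjusted p = 2.30e-04). In KO mice these 4 fell as well, by 3.47, 1.92, 1.75 and 1.31, and made up the 4 of 8 tested that passed, where 18.6% of all genes did. Among 15 other T cell leukaemia oncogenes, most were not tested because of low counts, and all 3 tested, Notch1, Myb and Myc, fell in Wt mice, Notch1 by 2.12 (adjusted p = 2.33e-04) and Myb by 1.09 (adjusted p = 0.00193). On library totals, the calls of Myb (adjusted p = 0.0651) and Myc (adjusted p = 0.122) were lost. In KO mice Notch1 and Myc fell, and Myb, which stands in more than one of the lists as Myc does, was at −0.69 (adjusted p = 0.0606) and passed when paired by mouse (adjusted p = 0.00274, and 0.00274 to 0.159 over all alternatives).

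For signalling below KIT, 15 of 17 genes were tested, and 3 rose and 2 fell in each genotype, where 22.9% of all genes passed in Wt and 18.6% in KO mice. The adaptor gene Gab2 fell by 2.62 (SE 0.38, adjusted p = 0.00215). Sh2b3 and Ptpn6, which encode an adaptor and the phosphatase SHP-1 that restrain cytokine receptor signals, rose by 1.17 (SE 0.35, adjusted p = 0.0451) and 1.12 (SE 0.24, adjusted p = 0.0108) in Wt mice, and the kinase gene Jak2 by 1.07 (adjusted p = 0.00128). KO values for these 4 were −2.35, 0.98, 0.94 and 0.74. The part of B cell RNA in the higher DN4 levels of Sh2b3, Ptpn6 and Jak2 was not tested. The Sh2b3 call in Wt mice was lost without any 1 DN3 library or the DN4 library of WT05 (adjusted p up to 0.106), and the Jak2 call in KO mice without the KO49 library of either stage, the DN3 library of KO51 or the DN4 library of KO45 (adjusted p up to 0.0766). In the MYC network, Myc fell and was the single gene of 9 tested to pass in Wt mice, a call lost on library totals (adjusted p = 0.122). In KO mice 3 of 9 passed, Myc lower and Mxd1 and Mxd3, whose products compete with MYC for MAX, higher by 0.71 (adjusted p = 0.0259) and 0.74 (adjusted p = 0.0205). Wt values of Mxd1 and Mxd3 were 0.39 (adjusted p = 0.109) and 0.45 (adjusted p = 0.124). Both were named after their values were seen, and how their calls hold under the alternatives was not examined.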

How the data were processed

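RNA of sorted DN3 and DN4 thymocytes was sequenced in 13 libraries from 7 mice. The authors prepared stranded mRNA libraries, trimmed the reads, mapped them with STAR and quantified them with featureCounts. Values deposited by the authors are whole-number counts for 47937 genes, not normalised. The submitters' processing notes name mm10, the same assembly as GRCm38, used for positions and exon lengths (GENCODE M21, 47224 identifiers matched without version). The annotation release and the strand setting of the counting are not given in the sources used here, so that exon bases shared with genes on the opposite strand could not be assigned.

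The quasi-likelihood test of edgeR 4.0.16 (R 4.3.3) was run on the groups of each comparison alone, with filterByExpr at a minimum count of 10, TMM scaling and Benjamini-Hochberg adjustment over all genes tested (threshold 0.05). SEs are the log2 fold change over the square root of F, and the 95% intervals use the t quantile at the degrees of freedom of the test. CPM used TMM-scaled sizes of all 13 libraries. Depth was 5926848 to 14148661 counts, and the limits given for counts of 0 cover counting error only. Nothing marks the libraries of a group as duplicates (chi-squared per degree of freedom of at least 6.19 between any pair). One library was made per mouse and stage.

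DN3 and DN4 libraries with the same number in their labels were taken as coming from the same animal. Their deviations from group means correlated over 13361 genes (r = 0.460 in KO45, 0.213 in KO49, 0.331 in KO51, 0.145 in WT05, 0.124 in WT46 and 0.182 in WT48). Libraries with different numbers were not compared in this way, so the pairing rests on the labels.

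Members and lists were chosen with earlier results of these data known. Named genes are the 10, their closest relatives, up to 4 genes of each of 7 lists that passed in the Wt stage comparison with the largest change, the 5 genes closest to Erg, and defining markers of other cell types. Cd79a was taken as the reference for B cell RNA after the data were seen. Mxd1, Mxd3, Cpa3, Nfe2, Cd34 and Hoxa9 as values of single libraries were named after their values were seen. Alternatives were DESeq2 1.42.0 (size factors, Wald test), library totals, other filters, all 13 libraries in one fit, no ribosomal RNA-like genes, leaving out each library, and a replicate block for the mouse. B cell marker level as a covariate was added after the data were seen. It was the summed level of the B cell list without Ighm and Cd79b, on a log2 scale and relative to library totals. The edgeR fits were tested on simulated data.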

Additional observations from a re-analysis of the deposited data

How the results depend on the processing

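No alternative brought any of the 10 genes past the threshold between genotypes or in the interaction. Counts over all genes moved. In DN4, 7 genes differed between genotypes; this was 11 with a filter of 1 count, 51 with DESeq2, 23 with B cell marker level as a covariate (added after the data were seen), and 0 to 8 with each library left out, 0 without KO49, KO51, WT05, WT40 or WT46. In DN3, 0 became 1 with a filter of 1 count, 3 with DESeq2, and 0 to 1 with each library left out (1 without WT46). In the interaction, DESeq2 gave 2. Between stages in Wt mice, 2903 became 1782 with library totals and 1845 to 3393 with each library left out, lowest without the DN4 library of WT05. In KO mice, 2338 became 4499 with the mouse as a replicate block and 1407 to 2790 with each library left out, lowest without the DN3 library of KO49. The replicate block also raised the count over the 7 lists in KO mice from 17 to 30, left that in Wt mice near 19, at 20, and took Pbx2 out of the calls in Wt mice (adjusted p = 0.140).

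The median stage difference of the genes tested of the 10 in Wt mice, 3.43, was 0.93 with at least 10 counts in every library, where 4 genes remained; fewer genes make this change. In DN4, the genotype difference of Lyl1 turned to 0.080 with the B cell covariate. With each library left out it ran from −0.80 to 0.66 for Lyl1, −1.20 to 0.42 for Lmo2, −1.05 to 0.42 for Hhex, −1.04 to 0.26 for Bcl11a, −1.05 to 0.37 for Spi1 and −1.25 to 0.031 for Mef2c; all 6 turned positive without WT48, and Lyl1, Hhex, Bcl11a and Spi1 also without KO51. In DN3, library totals turned Hhex to 0.095 and Bcl11a to 0.060, and leaving out libraries gave −0.13 to 0.32 for Erg, −0.66 to 0.98 for Lyl1, −0.84 to 0.20 for Hhex, −0.84 to 0.17 for Bcl11a and −0.44 to 0.22 for Kit. The interaction of Mycn ran from −0.43 to 0.017. Causes were not tested. Depth limits Meis1 in both stages, Erg in DN4 and Lmo2 in DN3.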
